A study of Drosophila melanogaster with 6 samples.

Results

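Genes that build and read silent chromatin, 9 in all, were followed through ATAC-seq peak lists of midgut progenitors of Drosophila melanogaster: Su(var)205, HP1b, HP1c, Su(var)3-7, Su(var)3-9, G9a, egg, wde and piwi. They were chosen by name, and their peaks by position. A peak counted for a gene when it overlapped, by 1 bp or more, the gene's annotated span plus 2 kb on either side, here called the locus. All 9 genes were found among 13946 protein-coding genes on placed chromosomes, and their loci held 69 peaks in the 6 samples together.

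Heterochromatin is marked by methylation of histone H3 at lysine 9. Methyltransferases place the mark, proteins of the HP1 family bind it and compact the chromatin, and in germ cells small RNAs bound to Piwi direct it to transposons. In Drosophila the linker histone H1 is itself needed for heterochromatin and is known to bind Su(var)3-9, which makes the genes of this machinery of interest in cells that lose H1.

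ATAC-seq tags open DNA with the Tn5 transposase. The cells were intestinal stem cells and enteroblasts, sorted for GFP from female flies. All 6 samples carried the same temperature-sensitive escargot driver with a GFP transgene (esgts, UAS-GFP), and 3 of them also carried the transgene UAS-H1 RNAi 1, which the driver switches on only where escargot is active. Flies 3 days old spent 2 days at 18 °C and then 4 days at 29 °C on poor food to induce the RNAi. Each replicate (A, B and C in each group) pooled 70 guts and gave 50000 to 100000 cells, and only 1 RNAi transgene was used. The depletion of H1 was not checked here.

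The lists held 6142, 10872 and 8602 peaks in controls A, B and C and 6564, 9827 and 7261 in H1 RNAi A, B and C. Read totals were not used here. The background that the peak caller worked with, in fragments per base, was 20.7 in control B and 10.1 in control C, against 4.83 to 8.28 in the other 4 samples. Controls B and C also covered the most genome, 6.92 and 5.96 Mb, while the other samples covered between 2.75 and 3.91 Mb. Of 8 progenitor marker genes, among them esg and the Notch receptor gene N, 7 had a peak within 500 bp of a gene end in all 6 samples. The exception was Delta. Of 6 enteroendocrine markers, 0 to 2 had one in any sample, and Tk, AstA, AstC and Dh31 had none in all 6. Markers of other types were not at 0: enterocyte genes had such a peak in 2 to 4 of 6 cases, muscle genes in 2 or 3 of 5 and female germline genes in 1 to 3 of 5. Of 4 hemocyte genes, 0, 1 and 2 had one in controls A, B and C and 0 in each H1 RNAi sample, and srp and eater had none in all 6. Their part in the results was not tested.

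A peak was present in 6, 8 and 8 of the 9 loci in controls A, B and C. In H1 RNAi A, B and C the numbers were 5, 8 and 3. H1 RNAi B thus equalled the richest controls, and H1 RNAi C was the poorest sample. Of all protein-coding genes, 42.4, 68.2 and 60.5% had a locus peak in controls A, B and C and 50.0, 60.8 and 45.2% in H1 RNAi A, B and C, so that the lists differed between samples for genes in general too. The means were 7.33 ± 1.15 and 5.33 ± 2.52 loci (SD, n = 3 per group, p = 0.4 by a two-sided exact permutation test). With 3 samples against 3 this test cannot give less than 0.1. It sets the difference of the means against those from every relabelling of these 6 pools, so the p-values refer to these pools. The difference, H1 RNAi minus control, was −2 loci. It was −0.833 loci without H1 RNAi C and −3.33 loci without H1 RNAi B.

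The number of peaks in the 9 loci was 7, 17 and 14 in the controls and 8, 18 and 5 in the H1 RNAi samples (exact permutation p = 0.8). Without H1 RNAi C the H1 RNAi mean was 0.333 peaks above the control mean. The length under peaks was 2323, 8680 and 7132 bp in the controls and 3756, 5011 and 1560 bp in the H1 RNAi samples (exact permutation p = 0.3). Control A, with the shortest list, lay below both H1 RNAi A and B. As a share of all sequence that a list covered, the 9 loci made up 0.110 ± 0.0222% in controls against 0.0972 ± 0.0405% in H1 RNAi samples (SD, n = 3 per group, p = 0.7 by exact permutation). A peak within 500 bp of either end of the gene was found for 5, 7 and 8 genes in controls and for 5, 7 and 2 in H1 RNAi samples (exact permutation p = 0.5). The share of all protein-coding genes with such a peak was 42.7 ± 12.5% in controls against 37.2 ± 8.03% with H1 RNAi (SD, n = 3 per group, p = 0.7 by exact permutation). Over these comparisons and that of the other silencing genes given last, 5 in all, each Benjamini-Hochberg adjusted p was 0.8.

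The lists differed in length, although each ended at a −log10 q between 2.00 and 2.05. Each list was therefore also reduced to its 6142 peaks with the highest −log10 q. Control A was kept whole, and the longer lists lost their weakest peaks by q. In these lists all 3 controls had a peak in 6 of the 9 loci, and H1 RNAi A, B and C had one in 5, 5 and 3. In this count the groups no longer overlapped, at the smallest p the exact permutation test allows (0.1; 66.7% of the loci in each control against 48.1 ± 12.8% in H1 RNAi samples, SD, n = 3). Over all protein-coding genes the same lists gave 46.2 ± 3.29% in controls against 43.5 ± 4.54% with H1 RNAi (SD, n = 3 per group, p = 0.6 by exact permutation), with H1 RNAi C again the lowest sample, at 38.7%. The loci called in more controls than H1 RNAi samples were Su(var)205, Su(var)3-9 and egg, 3 of 9 where 13.4% of all genes were. The reverse held for 0 of 9 (7.6% of all genes). Both shares of all genes include genes without a locus peak in any sample, which cannot be called. In the lists as deposited these made up 28.8% of all genes and 0 of the 9 members, so the shares are not a like-for-like background. Other measures of the 9 loci still overlapped between the groups in lists of equal length. Peaks numbered 7, 6 and 9 in controls and 7, 7 and 4 in H1 RNAi samples (exact permutation p = 0.6). Covered length was 2323, 5197 and 5164 bp against 3532, 2751 and 1356 bp (exact permutation p = 0.3). Genes with an end peak numbered 5, 4 and 5 against 5, 3 and 2 (exact permutation p = 0.4). With only peaks of −log10 q of at least 10, the number of loci with a peak overlapped between the groups. It was 1, 7 and 6 in controls and 3, 4 and 3 in H1 RNAi samples (exact permutation p = 0.6). When only peaks with a fold of 4 or more were kept (the authors' value of a peak's height over local background), the direction turned, with 1 locus more on average in the H1 RNAi samples.

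**Figure D1:**
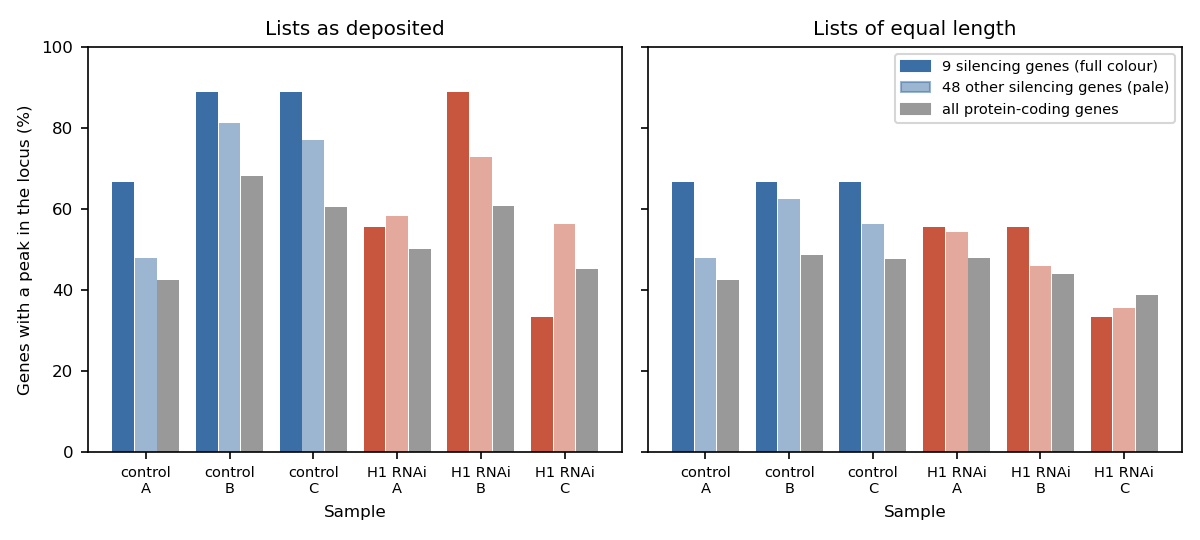
Percentage of genes with a peak in the locus (y axis) in each of the 6 samples (x axis), for the 9 silencing genes (full colour), 48 other silencing genes (pale) and all 13946 protein-coding genes (grey), in the lists as deposited (left) and reduced to 6142 peaks each (right). In the lists as deposited the 9 genes span 33.3 to 88.9%, and in the reduced lists each control stands at 66.7% and each H1 RNAi sample below it.

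Gene by gene, no member separated the groups. Covered length was lower in all 3 H1 RNAi samples than in all 3 controls for 0 of 9 members, where 3.97% of all protein-coding genes did so, and higher in all 3 for 0 of 9 (0.086% of all genes). The number of peaks in the locus was lower throughout for 0 of 9 (0.387% of all genes) and higher throughout for 0 of 9 (0.301%). The lowest adjusted p among members was 0.797 (exact permutation test, Benjamini-Hochberg over 9928 genes with a locus peak in any sample), which is also the lowest of all 9928. For 0 of 9 members was a peak called in one whole group and nowhere in the other, whereas 0.129% of all genes were called in the controls alone and 0.0215% in the H1 RNAi group alone in this way. Mean covered length was lower in the H1 RNAi group for 7 of 9 members, and for 90.8% of the 9928 genes. The median difference was −347 bp over the members and −197 bp over those genes.

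**Figure D2:**
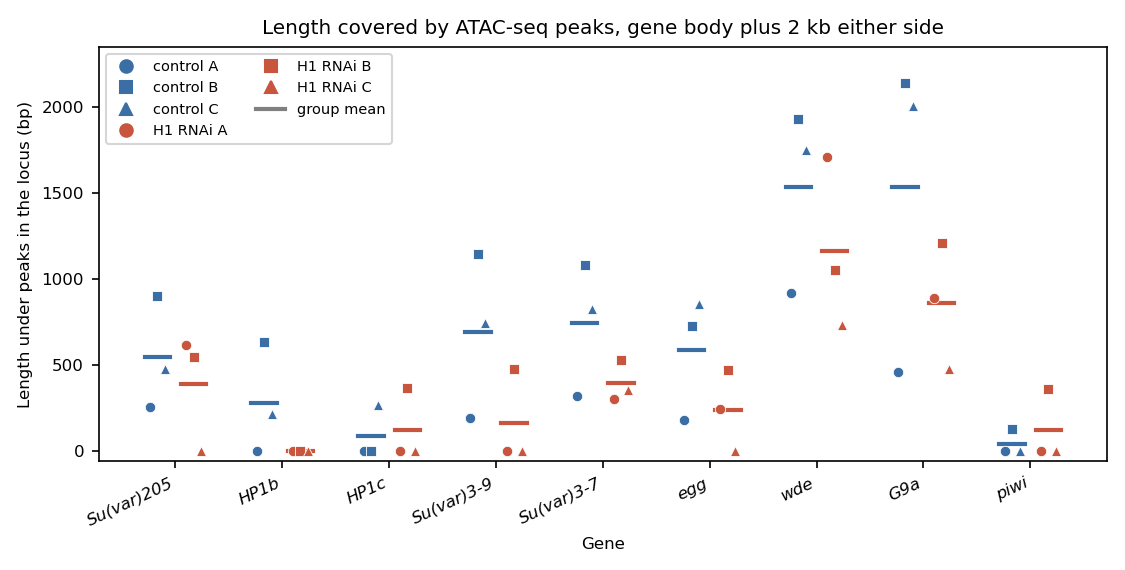
Length under peaks in bp (y axis) in the locus of each of the 9 genes (x axis), with 1 point per sample (blue controls, red H1 RNAi, symbols for replicates A, B and C) and a line at each group mean. The groups overlap at every gene, and controls B and C hold the highest values at Su(var)3-9, Su(var)3-7, egg, wde and G9a.

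Per length of locus, the order in controls ran from wde (12.3 ± 4.31% of the locus under peaks, SD, n = 3) and G9a (12.1 ± 7.37%) through Su(var)205 (9.88 ± 5.99%), Su(var)3-9 (9.13 ± 6.29%), Su(var)3-7 (7.68 ± 4.00%) and egg (6.99 ± 4.29%) to HP1b (4.94 ± 5.65%), HP1c (1.79 ± 3.09%) and piwi (0.448 ± 0.777%). Ranges of neighbours in this order overlapped throughout. In the H1 RNAi samples wde and G9a also stood near the top, at 9.31 ± 3.98% and 6.78 ± 2.91%, with Su(var)205 between them at 7.03 ± 6.12% (SD, n = 3 per group).

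The HP1 proteins read the mark. Su(var)205 encodes HP1a, the founding member, which binds methylated lysine 9 (CG8409, dm6 chromosome 2L, 8209626 to 8211122). The annotation used gives no strand, so the ends of a gene are named lower and upper by coordinate. Covered length in its locus was 253, 901 and 475 bp in controls A, B and C and 614, 546 and 0 bp in H1 RNAi A, B and C (means 543 ± 329 and 387 ± 337 bp, SD, n = 3 per group, p = 0.7 by exact permutation). The groups overlapped, and H1 RNAi C had no peak. One region (8210948 to 8211359) lay at the upper end, in the 224 bp that separate Su(var)205 from Ssb-c31a, a transcriptional coactivator gene, and reached into both genes. It was called in 3 controls and 2 H1 RNAi samples. Its summit, the point of highest coverage, took 2 positions without regard to group. In control A and H1 RNAi A it was 28 and 11 bp from the end of Su(var)205, and in controls B and C and H1 RNAi B it was 19 to 32 bp from the end of Ssb-c31a. A further region, called in 2 controls and 2 H1 RNAi samples, had its summits next to CG8360, at 1821 to 1998 bp beyond the upper end of Su(var)205. The lower end, which overlaps CG8419 by 12 bp, had no peak.

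HP1b, a paralogue of HP1a (CG7041, X, 9081063 to 9082746), was covered by peaks in controls B and C alone, over 631 and 212 bp, and by none in control A or in the 3 H1 RNAi samples (exact permutation p = 0.4). In controls B and C a peak lay inside the gene near its upper end, with summits 186 and 140 bp from it. Control B had another over the facing end of CG7246, which lies 5 bp from HP1b, with its summit inside CG7246 and 47 bp from HP1b. These were weak calls, at percentiles 6.05 to 19.2 of their own lists when ranked by the authors' q-value, and none remained in lists of equal length. Controls B and C were the libraries with the highest background.

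HP1c (CG6990, 3R, 22745620 to 22746605), a paralogue found mainly in euchromatin, had a peak at its lower end in 1 sample of each group. Covered length was 0, 0 and 267 bp in controls and 0, 368 and 0 bp in H1 RNAi samples (exact permutation p = 1). The summits in control C and H1 RNAi B lay 37 and 27 bp inside the gene. Only 38 bp separate this end from vret, a piRNA pathway gene, so the peak belongs to both loci. H1 RNAi B had a second peak next to the end of CG17141.

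**Figure D3:**
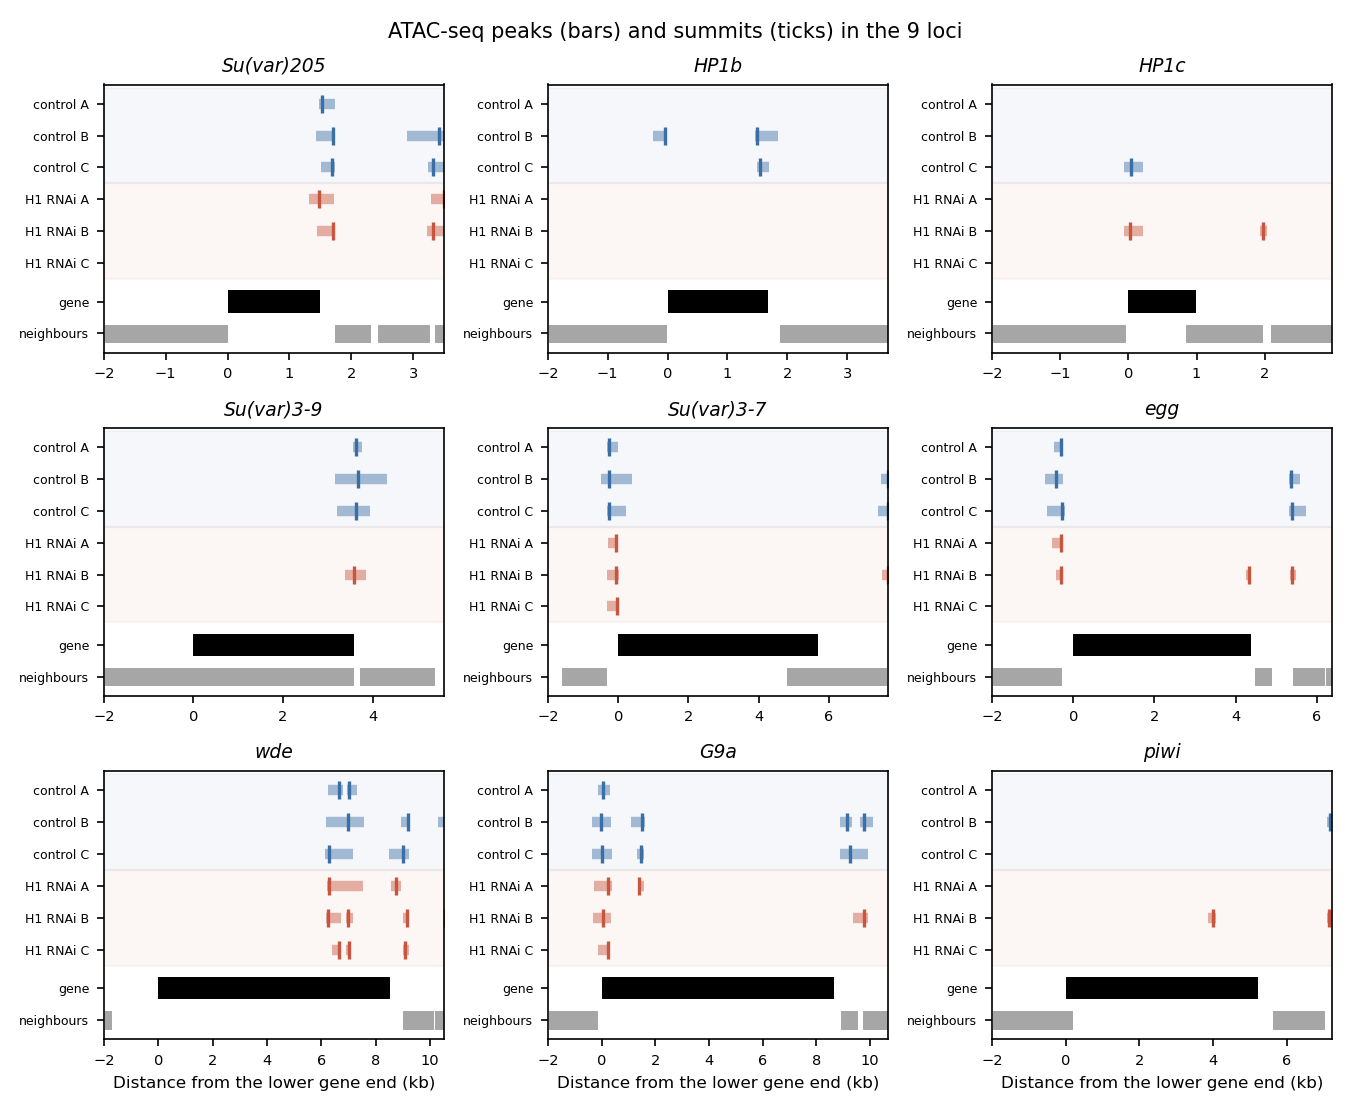
Peaks (bars) and their summits (ticks) in the locus of each of the 9 genes, by distance from the lower gene end in kb (x axis), with 1 row per sample (blue controls, red H1 RNAi), the gene in black and neighbouring protein-coding genes in grey. Peaks recur in all 6 samples at the lower ends of G9a and Su(var)3-7 and inside wde, and piwi has none at its own ends. Summits beyond the plotted 2 kb flank are not drawn.

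Su(var)3-7 encodes a zinc-finger protein that binds HP1a (CG8599, 3R, 13264364 to 13270038). It was among the 3 members with a locus peak in all 6 samples, together with wde and G9a; 35.9% of all protein-coding genes had one. Su(var)3-7 and G9a, 2 of 9, also had a peak within 500 bp of a gene end in all 6 (22.3% of all genes). Covered length was 321, 1082 and 827 bp in controls and 301, 527 and 351 bp in H1 RNAi samples (means 743 ± 387 and 393 ± 119 bp, SD, n = 3 per group, p = 0.3 by exact permutation). The groups overlapped only through control A. All 6 lists held a peak at the lower end (region 13263879 to 13264758), at percentiles 45.1 to 75.5 of their lists. It spans the 302 bp between Su(var)3-7 and its neighbour Ravus.

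Within this peak the summit stood at a different place in the 2 groups. In controls A, B and C it lay 255, 263 and 255 bp below the lower end of Su(var)3-7, that is 48, 40 and 48 bp from the end of Ravus. In H1 RNAi A, B and C it lay 66, 67 and 28 bp below Su(var)3-7. All 3 control summits were thus on the Ravus side and all 3 H1 RNAi summits on the Su(var)3-7 side, with 188 bp between the groups. The mean positions were −258 ± 4.62 and −53.7 ± 22.2 bp from the lower end (SD, n = 3 per group), a difference of 204 bp at the smallest exact permutation p of 0.1, and of 191 to 211 bp when any 1 sample was left out. This comparison was chosen after the positions had been seen. Of 3126 regions with exactly 1 peak from each sample, 12.2% had summits that did not overlap between the groups, with a median gap of 16 bp among these 380. A gap of at least 150 bp was found in 0.48%, and one at least as long as at Su(var)3-7 in 12 regions. A summit is a single point of a peak, so the shift says where coverage was highest in each list and not how open either gene end was. The other region of the 9 loci with 1 peak from each sample, at G9a, had overlapping summits.

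**Figure D4:**
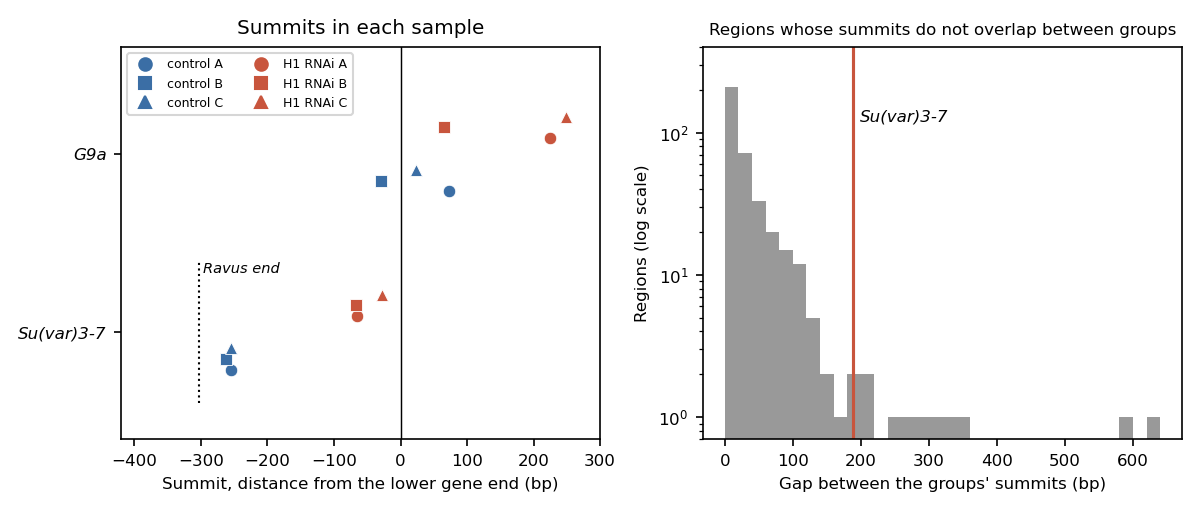
Left, summit position in bp from the lower gene end (x axis) for the peaks at Su(var)3-7 and G9a in each sample (blue controls, red H1 RNAi), with the end of Ravus dotted; the groups are 188 bp apart at Su(var)3-7 and overlap at G9a. Right, number of regions (log scale) by the gap in bp between the groups' summits, for the 380 of 3126 regions without overlap; the line marks Su(var)3-7.

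A second region of the Su(var)3-7 locus, near the upper end of TBC1D5, was called in controls B and C and H1 RNAi B with summits within 4 bp of each other (7661 to 7665 bp above the lower end of Su(var)3-7).

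Of the genes that place the mark, Su(var)3-9 encodes the methyltransferase of pericentric heterochromatin (CG43664, 3R, 15259864 to 15263458). Covered length was 193, 1145 and 743 bp in controls and 0, 477 and 0 bp in H1 RNAi samples (means 694 ± 478 and 159 ± 275 bp, SD, n = 3 per group, p = 0.2 by exact permutation). A peak was thus called in all 3 controls and in H1 RNAi B alone, and H1 RNAi B exceeded control A. The same pattern of 3 against 1 held in lists of equal length. It was 2 against 1 with peaks of −log10 q of at least 10, and 1 against 1 with a fold of at least 4. Without H1 RNAi B the groups did not overlap, with a difference of −694 bp; 10.1% of all genes had lower coverage throughout in that setting. The single region (15263032 to 15264176) lay at the upper end, with summits 2 to 71 bp beyond it. The annotated span of Su(var)3-9 lies wholly within eIF2gamma, a translation initiation factor gene that shares this upper end, and Set lies 93 bp beyond it, the nearest gene end for the summit of control B. The 3 genes cannot be told apart here.

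G9a encodes a lysine 9 methyltransferase of euchromatin (CG2995, X, 245978 to 254650). Its locus had 458, 2138 and 2004 bp under peaks in controls and 887, 1212 and 477 bp in H1 RNAi samples (means 1533 ± 934 and 859 ± 368 bp, SD, n = 3 per group, p = 0.4 by exact permutation). Control A was the lowest of all 6. The peak at its lower end (245618 to 246355) held the highest percentile of the 69 peaks; the neighbour CG3038 lies 121 bp away. It stood at percentiles 57.2, 89.6 and 91.1 in the lists of controls A, B and C and at 74.6, 79.4 and 69.0 in those of H1 RNAi A, B and C. The authors' fold at this summit was 4.80, 7.20 and 10.5 in the control lists and 7.19, 8.78 and 5.39 in the H1 RNAi lists; these belong to each list's own background. Summits lay at 73, −29 and 23 bp from the lower end in controls and at 225, 66 and 248 bp in H1 RNAi samples (exact permutation p = 0.2), so that H1 RNAi B fell among the controls. A weak intragenic region, 1396 to 1515 bp inside the gene, was called in controls B and C and H1 RNAi A, at percentiles 4.97 to 16.4. Peaks beyond the upper end lay by CG42376 and cin.

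egg encodes the Drosophila SETDB1 enzyme, another lysine 9 methyltransferase (CG12196, 2R, 24775534 to 24779901). Covered length was 177, 727 and 852 bp in controls and 244, 470 and 0 bp in H1 RNAi samples (means 585 ± 359 and 238 ± 235 bp, SD, n = 3 per group, p = 0.3 by exact permutation). H1 RNAi C had no peak, and control A was below H1 RNAi A and B. The recurrent region (24774835 to 24775328, in 3 controls and 2 H1 RNAi samples) lay below the gene, and all 5 of its summits were within 164 bp of the end of Eps-15, an endocytosis gene 268 bp away, and 269 to 433 bp from egg itself. A peak at egg's own upper end was called in H1 RNAi B alone, with its summit 31 bp inside the gene, at percentile 9.60 of its list. The other region, next to CG3594, was called in 2 controls and 1 H1 RNAi sample.

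wde encodes the partner of that enzyme, related to mammalian ATF7IP (CG12340, 2R, 10800420 to 10808938). Covered length was 921, 1932 and 1752 bp in controls and 1710, 1054 and 732 bp in H1 RNAi samples (means 1535 ± 539 and 1165 ± 498 bp, SD, n = 3 per group, p = 0.4 by exact permutation). H1 RNAi A reached the level of controls B and C here. Its constant feature was inside the gene: a region (10806567 to 10807995) with summits 1485 to 2250 bp from the upper end was called in all 6 samples. Controls B and C and H1 RNAi A called it as 1 peak, and control A and H1 RNAi B and C as a pair. A second region, beside CG12935, was called in 2 controls and all 3 H1 RNAi samples, and another at Nop10 in 1 of each. The lower end had no peak.

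piwi encodes the nuclear Argonaute protein of the piRNA pathway, known from the gonad and also from intestinal stem cells (CG6122, 2L, 10982205 to 10987420). It was the only member without a peak within 500 bp of either end in any sample; 43.2% of all protein-coding genes had none. Covered length in the locus was 0, 124 and 0 bp in controls and 0, 357 and 0 bp in H1 RNAi samples (exact permutation p = 1). Both B replicates, the longest lists of their groups, called a peak 1956 and 1930 bp beyond the upper end, where the nearest gene end was that of TTLL4A, 25 and 51 bp away. H1 RNAi B alone had a peak in the gene body (10986071 to 10986289), at percentile 2.99 of its list. In lists of equal length piwi, HP1b and HP1c had no locus peak in any sample. The share of all genes with none in any of these lists was not worked out. In single samples 38.7 to 48.5% of all protein-coding genes had one.

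Much of the open chromatin in these loci lay at the ends of neighbouring genes. Of the 69 peaks, 56 had their summit within 500 bp of some protein-coding gene end, but only for 32 (46.4%) was the member's own end the nearest or equal nearest one; for 37 it was a neighbour's. The summit fell in the member's body in 24 cases and in the flank in 45. The same shares were not worked out for the loci of all protein-coding genes, so these counts have no background here. Merging overlapping peaks gave 20 regions, of which 15 were called in both groups, 3 in all 6 samples, 2 in controls alone and 3 in H1 RNAi samples alone. None was called in all 3 samples of one group and in none of the other. Such shares were not worked out over all merged regions of the lists, so the region counts have no background either. The 2 control regions were both at HP1b. The 3 H1 RNAi regions, at HP1c, egg and piwi, were each called in replicate B alone. Most were modest calls, with a median percentile of 32.8 in their own lists, and 20 of 69 ranked above the middle.

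For comparison, 48 other genes of heterochromatin and the piRNA pathway were read in the same way. A locus peak was found in 23, 39 and 37 of the 48 in controls and in 28, 35 and 27 in H1 RNAi samples (means 33 ± 8.72 and 30 ± 4.36, SD, n = 3 per group, p = 0.8 by exact permutation). As a share, 68.8 ± 18.2% and 62.5 ± 9.08% had one, against 57.0 ± 13.2% and 52.0 ± 8.0% of all protein-coding genes and 81.5 ± 12.8% and 59.3 ± 28.0% of the 9 members. Without control B the difference was 0. Of the 48, 9 had a peak in more controls than H1 RNAi samples (18.8% of all genes did), 3 the reverse (7.17% of all genes) and 36 in equal numbers. Among the 9 members these numbers were 4 (Su(var)205, HP1b, Su(var)3-9 and egg), 0 and 5. The shares of all genes include the 28.8% without a locus peak in any sample, whereas 0 of the 9 members lacked one throughout.

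A peak in all 6 samples was found at 19 of the 48, where 35.9% of all protein-coding genes had one. Among them were Su(var)2-HP2, which encodes an HP1a-binding protein, Su(var)3-3, the histone demethylase gene, HDAC1, the deacetylase gene, and Hmt4-20, the methyltransferase gene of histone H4. Hmt4-20 had between 2336 and 3167 bp under peaks in every sample. No sample had a peak at 7 of the 48, where 28.8% of all genes had none. They were the Argonaute genes aub and AGO3, the Tudor-domain genes krimp and tej, and the HP1 relatives rhi, HP1e and HP6. Other genes of the piRNA pathway, armi, mael, squ, shu, Panx and vas, had a locus peak in all 6 samples. Of these, mael, shu and vas had no peak within 500 bp of their own ends in any sample.

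A difference of 2 or more samples was found at 3 of the 48, each with fewer H1 RNAi samples. The share of all protein-coding genes with such a difference was not worked out, so this count has no background here. ADD1, an HP1a-associated gene, was covered over 667 and 527 bp in controls B and C and not at all in the other 4 samples (exact permutation p = 0.4). Kdm4A, a histone demethylase gene, showed the same pattern with 267 and 331 bp (exact permutation p = 0.4). HP1D3csd, a gene with a chromo shadow domain, had 86, 35 and 189 bp in controls and 0, 0 and 6 bp in H1 RNAi samples (exact permutation p = 0.1); it was the 1 gene of the 48 whose covered length was lower in all H1 RNAi samples, where 3.97% of all genes were. None of its peaks lay within 500 bp of its ends. Only the part of a peak inside the locus was counted, and median peak widths in the lists were 323 to 572 bp. With summits in place of overlap, a locus peak was found in 22, 38 and 36 of the 48 in controls. In H1 RNAi samples the numbers were then 28, 35 and 26. The lengths at HP1D3csd can therefore be edges of peaks centred outside its locus, which was not checked.

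**Figure D5:**
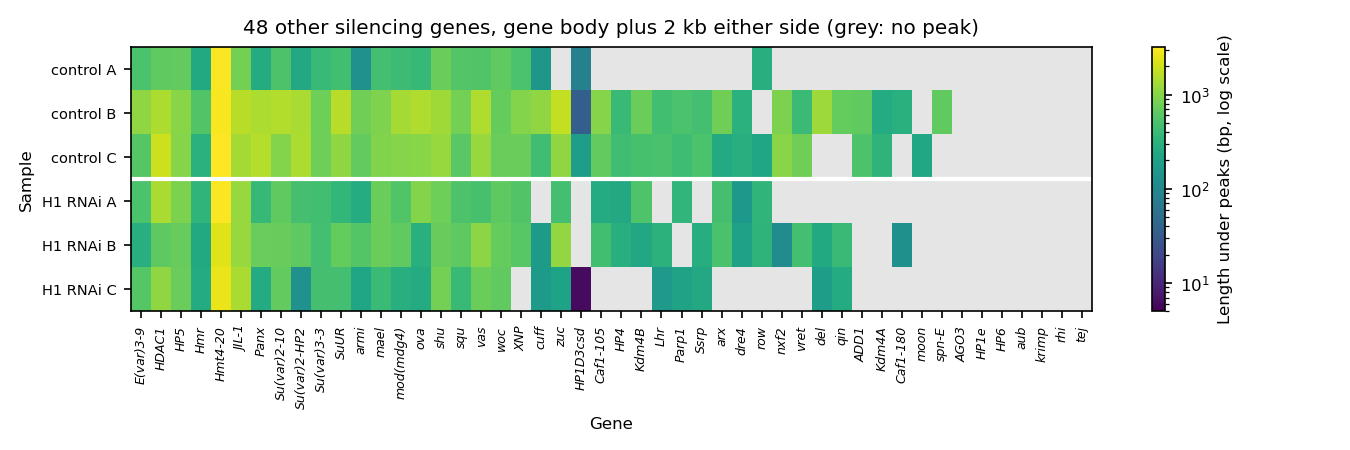
Length under peaks in bp (colour, log scale; grey where no peak was called) in the loci of 48 other silencing genes (columns, ordered by the number of samples with a peak) in each sample (rows, controls above H1 RNAi). From the left, 19 genes have a peak in all 6 samples, and the last 7 have none.

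The 3 genes of the 48 whose covered length over the 6 samples, scaled to its own mean, was most like that of the 9 loci summed were mod(mdg4), a chromatin insulator and modifier gene, armi, a piRNA pathway helicase gene, and Panx, whose protein acts with Piwi in silencing. The mean absolute difference from the summed profile was 0.0789, 0.139 and 0.188 of the mean. At mod(mdg4) it was 420, 1334 and 1001 bp in controls A, B and C and 554, 656 and 294 bp in H1 RNAi A, B and C. All 3 shared the high values of controls B and C and the low values of control A and H1 RNAi C. Over the whole lists, too, controls B and C covered the most sequence, and control A and H1 RNAi C the least.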

How the data were processed

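Peaks were called per sample, without pooling. Trim Galore, Bowtie2, Picard and MACS2 with the dm6 build are named per the submitters' processing notes; their order, versions, settings and Tn5 shift were not given in the sources used here. Per the file headers the deposited lists are in narrowPeak format. They give start, end and summit, an integer score, the fold (a ratio over local background), and −log10 p-value and q-value as the authors' caller wrote them. Fold, score and q rank peaks within a list only.

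Gene coordinates and symbols were taken from an NCBI RefSeq table for this assembly, which has no strand or sequence, so both gene ends replaced the planned gene start. Of the 48 further genes, 4 matched through synonyms. Background was solved from fold and p-value, assuming MACS2's pseudocount of 1 and Poisson tail; 100% to 99.97% of peaks gave fragments within 0.02 of a whole number.

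Groups were compared by exact two-sided permutation (Python 3.11.15, scipy 1.17.1). On simulated lists of 10000 genes, 200 of 200 planted calls were recovered, which checks the code alone. The planted genes met the calling rule by design, and calls among the remaining genes were not counted. The members and lists were chosen with earlier results of these data known. Every member was named, with other genes differing by 2 or more samples and the 3 most alike. Lists of all genes at equal length and summit positions were added after seeing the data.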

Additional observations from a re-analysis of the deposited data

How the results depend on the processing

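Of the 5 comparisons of sample values, 4 turned with a minimum fold of 4, each then higher in H1 RNAi: loci with a peak by 1, peaks by 1.67, covered length by 250 bp and other silencing genes by 0.667; the cause was not tested. Gene ends stayed lower. A −log10 q of at least 10, equal list lengths, summits in place of overlap and other windows kept each direction. Leaving out 1 sample at a time gave differences of −3.33 to −0.833 loci, −6.17 to 0.333 peaks, −4464 to −1285 bp, −3.17 to −0.667 genes with an end peak, and −8 to 0 other silencing genes. Members whose covered length did not overlap between groups numbered 0, but 0 to 6 when 1 sample was left out: without control A they were HP1b, Su(var)3-9, Su(var)3-7, egg, wde and G9a (44.4% of all genes were then lower in H1 RNAi throughout), and without H1 RNAi B Su(var)3-9 (10.1%). Members called in all controls and no H1 RNAi sample numbered 0 to 1 when 1 sample was left out: HP1b without control A (2.44% of all genes) and Su(var)3-9 without H1 RNAi B (1.14%). With a flank of 5 kb each of these counts was 1, at HP1b, and the shares of all genes were not worked out for that flank. Correlations of deviations over 9928 genes between same-lettered samples were 0.0716, 0.361 and −0.200 for A, B and C. Control A and H1 RNAi C, of unlike letters, had 0.299, and not every sample correlated best with its own letter. The letters were therefore not taken to pair the samples. With the letter as a replicate block the differences were −2 loci, −2.33 peaks, −2603 bp, −2 genes with an end peak and −3 other genes, at exact sign-flip p = 0.5, 1, 0.5, 1 and 0.75, where 0.25 is the smallest possible. Depth was not known, and the peaks at HP1b, HP1c and piwi did not remain at equal list length, so a missing call there does not show closed chromatin.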
